A study of Mus musculus with 15 samples.

Results

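Stathmin knock-out fibroblasts were compared with wild type fibroblasts on 8 of the 15 two-colour arrays of the series. The genotype label of each sample set the members: 4 arrays of embryonic fibroblasts lacking stathmin and 4 of wild type. All cells were mouse embryonic fibroblasts of the C57B6 strain background, taken from embryos at 13.5 days post coitum, grown to passage 3 and collected at high confluence after 24 h without serum, so both groups were confluent and serum-starved. The remaining 7 arrays, 4 of p27 knock-out and 3 of double knock-out cells lacking p27 and stathmin, entered the estimate of the spread and 1 side-by-side comparison. Arrays of 1 genotype are biological replicates per the labels, which do not say how many embryos a culture pooled or which part of the gene was deleted. The sample carried Cy5 and a reference of pooled fibroblast RNA carried Cy3, with no dye swap, and values are log2 ratios of sample over reference. A difference is always stathmin knock-out minus wild type.

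Stathmin, the product of Stmn1, is a small cytosolic phosphoprotein that binds tubulin dimers and favours microtubule disassembly. Kinases of the cell cycle and of growth signalling phosphorylate it, which releases tubulin and allows the mitotic spindle to form. In fibroblasts it is known for its part in cell motility and as a binding partner of the cell cycle inhibitor p27.

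Each of 4 slides carried 1 wild type and 1 stathmin knock-out array, and wild type always lay at position 1 and stathmin knock-out at position 4, so genotype cannot be told apart from slide position. Over the 15 arrays 59.3 to 78.9% of spots were well above background in the sample channel, and precision is limited by how few arrays there are. Outlier spots made up 0.46 to 0.86% on wild type arrays and 0.06 to 0.18% on stathmin knock-out arrays. The median raw sample signal was 251.9 to 420.9 units in wild type and 407.2 to 452.4 in the knock-out, lower in wild type on each slide. Spot quality thus went with genotype. Wild type arrays 3 and 4 correlated at 0.84 over all genes tested, against 0.19 to 0.46 for the other wild type pairs and -0.08 to 0.37 for stathmin knock-out pairs. Y-linked genes averaged -3.37 and -3.32 on stathmin knock-out arrays 1 and 2 and 0.56 and 0.51 on arrays 3 and 4, against -0.11 to 0.55 in wild type. Xist, the RNA that coats the inactive X chromosome, stood at 1.01 and 1.98 on stathmin knock-out arrays 1 and 2, at 0.20 on wild type array 1, and between -2.58 and -2.0 on the other 5. Values on slides 3 and 4 alone, where neither array had high Xist, are therefore given beside the gene groups, as a setting chosen after seeing the data. Wild type arrays 3 and 4 are the pair that correlated at 0.84, so this setting rests on 2 closely alike wild type arrays. All 15 fibroblast markers of the fixed list were measured in both genotypes.

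Stmn1 (chr4:134468320-134473843, GRCm38) was read by 2 probes, and they gave different answers. At the dimmer probe the ratio was 0.71, 0.87, 0.80 and 0.64 on wild type arrays 1 to 4 and -2.82, -2.64, -2.68 and -2.98 on stathmin knock-out arrays 1 to 4. The groups were far apart on every slide. The difference was -3.53 (SE 0.193, n = 4 and 4; limma, adjusted p = 1.75e-06 over all probes), and it was -3.48 to -3.61 within slides. The raw sample signal at this probe was 18501 to 29305 units in wild type and 2068 to 2350 in the knock-out, where it was still well above background on all 4 arrays. At the brighter probe the ratio was 0.33, -0.03, -0.49 and -0.21 in wild type and -0.06, -0.74, -0.40 and -0.85 in the knock-out. These groups overlapped, and the difference of -0.41 (SE 0.291) did not pass the test (limma, adjusted p = 0.907 over all genes). Its raw sample signal was 83456 to 135710 units in the knock-out, so the brighter probe carried strong signal in cells labelled as lacking the gene. Both probes are assigned to the same RefSeq transcript, and the files do not say where in it they lie. A probe outside the deleted part would check nothing.

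**Figure D1:**
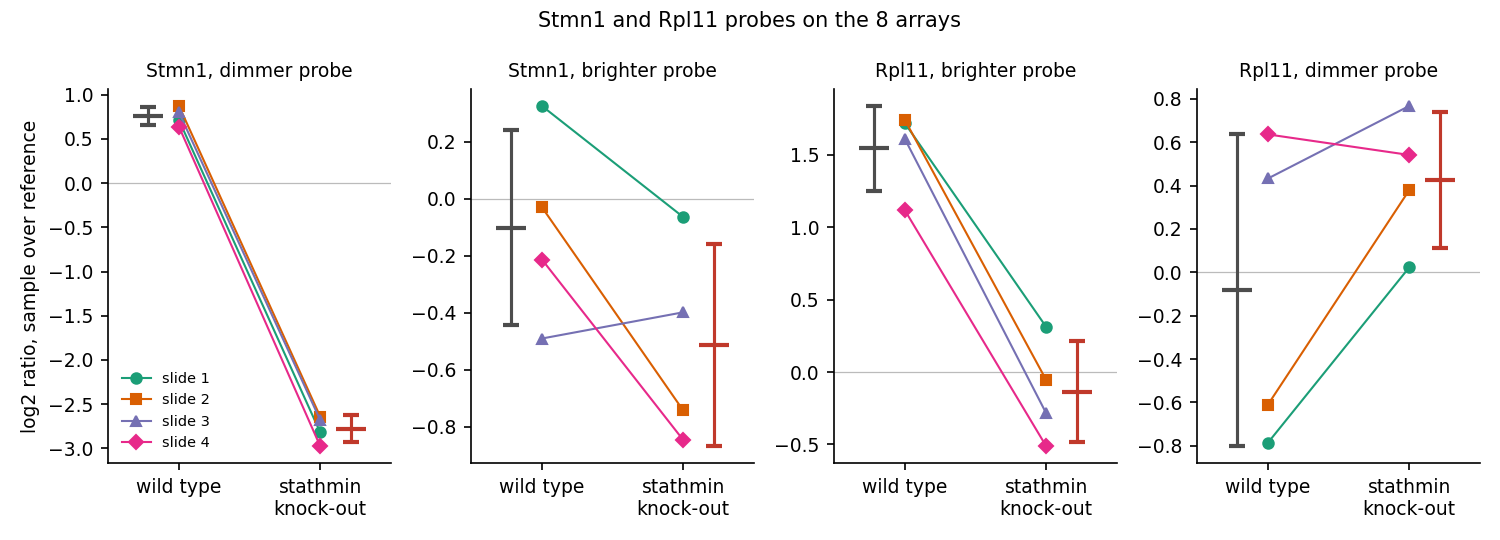
Log2 ratio of sample over reference on the 8 arrays for both probes of Stmn1 and both probes of Rpl11, with lines joining the 2 arrays of a slide and horizontal marks giving the mean with 1 SD on either side (n = 4). The dimmer Stmn1 probe and the brighter Rpl11 probe separate the genotypes on every slide, and the other probe of each gene does not.

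The other stathmin family members, which bind tubulin in the same way and are best known from neurons, did not follow. Stmn2 differed by 0.21 (SE 0.623) and Stmn4 by -0.51 (SE 0.526), neither past the threshold, and Stmn3 did not pass the filter on dim probes. Cdkn1b, which encodes p27, read 0.93, -0.22, 0.08 and 0.08 in wild type and 0.34, 0.17, -0.46 and -0.39 in the knock-out. Its groups overlapped, with a difference of -0.30 (SE 0.365; limma, adjusted p = 0.934).

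Over all 18688 genes tested, 1 gene passed an adjusted p under 0.05, which is 0.00535% of them. The brightest tested probe stood for a gene, so Stmn1 entered this count through its brighter probe and not the dimmer one. With slide as a block 2 genes passed (0.0107%). At an unadjusted p under 0.05 there were 891 genes (4.77%), 369 higher (1.97%) and 522 lower (2.79%), and with the slide block 1376 (7.36%). In 289 genes (1.55%) all 4 stathmin knock-out arrays lay above all wild type arrays with a value, and in 297 (1.59%) all 4 lay below. The median difference over all genes was 0.01, with 51.9% of genes above 0 and 48.1% below. The 95% interval of a typical gene, without correction for the number of genes, reached 0.48 to either side. The correction asks for more, so a typical gene with a change of this size would not be called. Even Krt7, at -1.78 (SE 0.307), did not pass it.

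The called gene was Rpl11 (chr4:136049354-136053393, GRCm38), a protein of the large ribosomal subunit that also binds Mdm2 under nucleolar stress. Its brighter probe read 1.72, 1.74, 1.61 and 1.12 in wild type and 0.31, -0.05, -0.28 and -0.51 in the knock-out. Every knock-out array lay below every wild type array. Rpl11 fell by 1.68 (SE 0.195; limma, adjusted p = 0.0157, or 0.00079 with the slide block), and the slides gave -1.89 to -1.41. Taken channel by channel, the sample signal differed by -0.47 and the reference signal by 1.21 (limma, adjusted p = 0.00852 for the reference). The raw reference signal was 61544 to 122670 units on wild type arrays and 155720 to 224520 on knock-out arrays, although the same pooled RNA was used. The larger share of the Rpl11 difference thus lay in the reference channel, and the reason was not tested. Over all genes the median reference difference was 0.002, but bright genes of groups described below shifted too. For Cxcl5 (sample 0.55, reference -1.82), Col3a1 (0.16, -0.92), B2m (0.31, -0.64) and Tagln (-0.50, 0.58) the reference held the larger share. For Lum (1.46, -1.15) and Mmp3 (2.28, -1.75) it held the smaller. Medians of the chemokine, fibroblast, MHC class I and smooth muscle lists kept their sign in all 25 alternatives, which include the sample channel alone. The dimmer probe of Rpl11 differed by 0.51 (SE 0.471) in the other direction. The call was lost in 5 of the 8 fits that left out 1 array (without wild type arrays 1, 2 or 3, or knock-out arrays 2 or 3; adjusted p 0.0715 to 0.113), and with the 8 arrays fitted alone (0.359). The second call with the slide block was a transcript listed as ENSMUST00000033039, at 1.91, 1.36, 1.37 and 1.00 in wild type and 0.56, -0.48, -0.91 and -0.82 in the knock-out. Its difference of -1.82 (SE 0.343) had an adjusted p of 0.444 in limma without the block and 0.047 with it, and its reference channel differed by 0.98.

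Ribosomal protein genes as a list showed no shift of that size. The 80 measured genes had 50 members below 0 and a median of -0.04, or -0.14 on slides 3 and 4. Rpl22l1, a paralogue of a large-subunit protein, was at -0.59 (SE 0.182) and Rps7, a small-subunit protein, at -0.45 (SE 0.205). Both had values on only 2 wild type arrays, since outlier spots were left out, and neither passed the test.

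Next in the order of p came genes that separated the groups without passing the correction. Fuca1, the lysosomal enzyme that removes fucose from glycoproteins, read -0.72, -0.51, -1.02 and -0.65 in wild type and 0.42, 0.46, 0.21 and 0.41 in the knock-out, a difference of 1.10 (SE 0.168; limma, adjusted p = 0.131). Its second probe differed by 0.45 in the same direction, with 3 of 4 knock-out arrays above wild type. Tshz1, a zinc-finger transcription factor of the trunk, read 0.37, 0.46, 0.28 and 0.51 in wild type and -0.27, -0.44, -0.26 and -0.22 in the knock-out. The 4 knock-out arrays were tightly grouped below wild type, with a difference of -0.70 (SE 0.110, adjusted p = 0.131 in limma), and the second probe gave -0.46. Krt7, a keratin of simple epithelia, read 1.10, 0.40, 1.06 and 1.07 against -0.73, -1.56, -1.002 and -0.20, a difference of -1.78 (SE 0.307, adjusted p = 0.266 in limma), with -1.50 at its second probe. Asap3, a GTPase-activating protein for Arf, read -1.15, -1.14, -2.07 and -1.58 in wild type and 0.26, 0.46, 0.04 and 1.13 in the knock-out, a difference of 1.96 (SE 0.359, adjusted p = 0.316 in limma). Krt80, another keratin, differed by -1.19 (SE 0.240, adjusted p = 0.494 in limma). Lack of overlap between the genotypes was the condition for naming these 5 genes and is not a result about them. Of all genes tested, 3.14% lay beyond wild type in either direction.

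Several of these genes lie near Stmn1 on chromosome 4. Of 152 tested genes within 5 Mb of its start, 11 had all 4 knock-out arrays above wild type and 3 had all 4 below, while 3.14% of all genes tested lay beyond wild type in either direction. They were not on 1 side: 78 of the 152 were above 0 and 74 below, with a median of 0.02. Pdik1l, a serine/threonine kinase 0.19 Mb before Stmn1, was at -0.35, -0.79, -1.20 and -1.002 in wild type and 0.65, 0.54, 0.43 and 0.46 in the knock-out. Its difference was 1.36 (SE 0.266; limma, adjusted p = 0.444), but its second probe gave -0.56. Runx3, a Runt-family transcription factor 0.65 Mb beyond Stmn1, differed by 1.31 (SE 0.359), with 0.02 at its second probe. Fuca1 lies 1.45 Mb beyond Stmn1, Rpl11 1.58 Mb and Asap3 1.74 Mb. E2f2, an activator of S-phase genes 1.70 Mb beyond Stmn1, differed by -0.86 (SE 0.210). Whether differences here go with the deletion itself or with flanking DNA of the line that carries it was not tested. Over chromosome 4 as a whole 512 of 939 genes were above 0, with a median of 0.02.

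**Figure D2:**
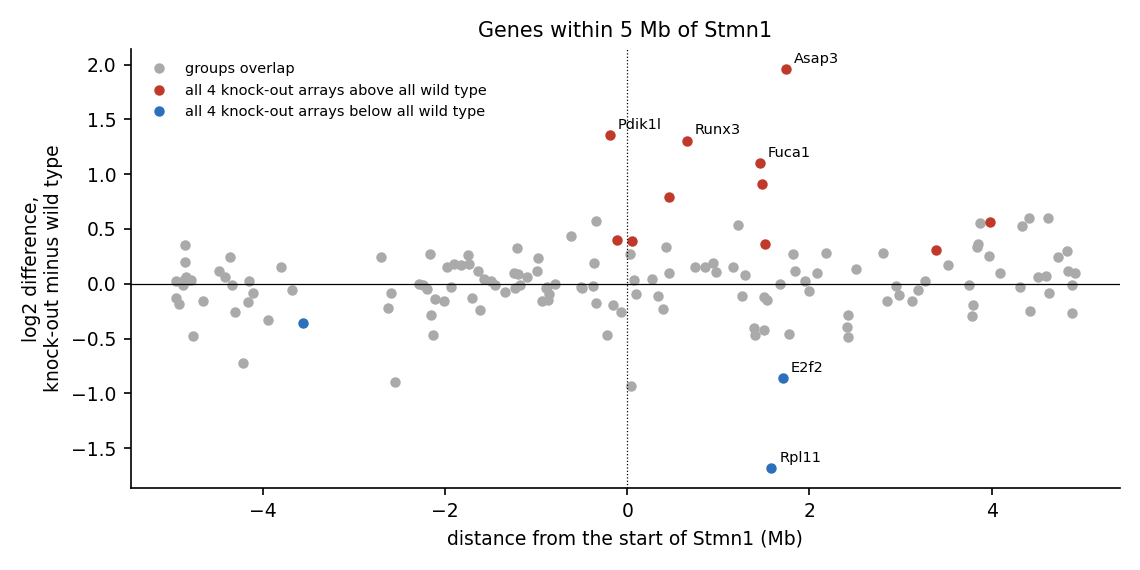
Log2 difference (stathmin knock-out minus wild type) of the 152 tested genes within 5 Mb of Stmn1, plotted against distance from its start in Mb. Grey points overlap between the genotypes, and the coloured points have all 4 knock-out arrays on 1 side of wild type, 11 above and 3 below, with most of the large differences between -0.19 and 1.74 Mb.

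Lysosomal genes were higher in stathmin knock-out cells as a group. Of 43 genes on the list of hydrolases, membrane proteins and their regulators, 42 were measured and 41 lay above 0, where 51.9% of all genes did, with a median of 0.46 against 0.01 over all genes. None passed the correction. At an unadjusted p under 0.05, 16 of 42 were higher and 0 lower, while 1.97% of all genes were higher at that level. The 40 members measured on all 8 arrays averaged -0.36, -0.10, -0.33 and -0.18 on wild type arrays 1 to 4 and 0.37, 0.30, -0.08 and 0.26 on knock-out arrays 1 to 4. All 4 knock-out arrays thus lay above wild type, array 3 only just, and the slides gave 0.74, 0.40, 0.26 and 0.44. On all 4 slides 29 of 42 members were higher, where 7.8% of all genes were. On slides 3 and 4 alone the median was 0.31, with 36 members above 0 and 6 below.

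By role, the separated members included enzymes that trim sugars from glycoproteins and glycosaminoglycans. Besides Fuca1, these were Man2b1, lysosomal alpha-mannosidase, at -0.52, -0.18, -0.46 and -0.41 in wild type and 0.19, 0.48, 0.15 and 0.16 in the knock-out, and Idua, alpha-iduronidase, at -0.31, -0.20, -0.51 and -0.08 against 0.54, 0.16, 0.03 and 0.50. Their differences were 0.64 (SE 0.185) and 0.58 (SE 0.164), and neither group overlapped. Psap, the precursor of the saposins, which help break down sphingolipids, differed by 0.74 (SE 0.260), and its knock-out array 3 lay within the wild type range. Among the cathepsins, which are the lysosomal proteases, Ctsb was higher by 0.81 (SE 0.408), Ctsd by 0.72 (SE 0.293) and Ctsl by 0.67 (SE 0.306). Lamp2, a membrane protein of the organelle, was higher by 0.57 (SE 0.255) and Naglu, which degrades heparan sulphate, by 0.57 (SE 0.248). These last 5 were named after their values were seen. In 9 of 42 members all 4 knock-out arrays lay above wild type, where 1.55% of all genes did. Tfeb, the transcription factor that drives lysosomal genes, was itself at 0.04, and the 1 member below 0 was the autophagy receptor Sqstm1, at -0.12 with only 2 wild type arrays measured. Fuca1 is the largest of the list and lies near Stmn1, and the other members named here lie on other chromosomes. Macrophage and blood markers, from cells rich in lysosomes, had 15 of 18 measured members below 0 with a median of -0.33 (-0.45 on slides 3 and 4), and none passed at an unadjusted p under 0.05. The list averaged -1.80 to -0.46 on wild type arrays and -1.88 to -0.91 on knock-out arrays, with slide differences of 0.32, -0.45, 0.04 and -0.94. Its median was -0.01 without knock-out array 4, -0.11 without wild type array 2 and -0.54 without wild type array 1. The pan-leukocyte gene Ptprc was at -0.43 (SE 1.18). The part of such cells in the lysosomal values was not tested. Here as below, a mixture with more cells of a type and more RNA per cell cannot be told apart in bulk samples.

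**Figure D3:**
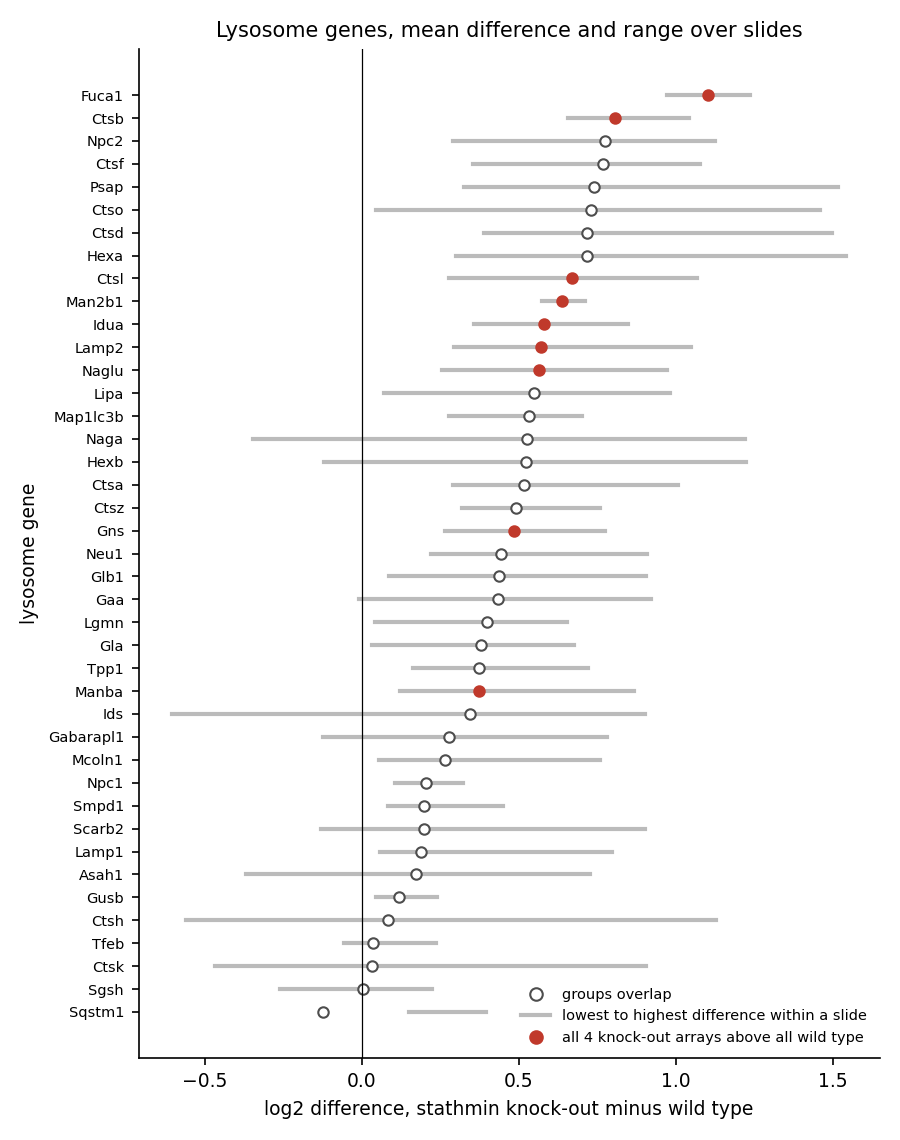
Log2 difference (stathmin knock-out minus wild type) of 41 of the 42 measured lysosomal genes, as points, with grey bars from the lowest to the highest difference within a slide. Filled points are the 9 genes whose 4 knock-out arrays all lie above wild type. Of the 41 genes drawn 40 are above 0, and Sqstm1, below 0, has values on only 2 wild type arrays, so its bar covers fewer arrays than its mean.

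The promoters of this group were read for the E-box palindrome CACGTG, the core of the element bound by Tfeb and its relatives, in the 250 bases before and 50 bases after the RefSeq start (GRCm38.p6). It was present in 12 of the 34 lysosomal genes with a listed promoter (35.3%), against 1322 of 12110 genes tested on the arrays (10.9%) and 2187 of all 27025 genes of the table (8.09%). The longer palindrome TCACGTGA, which contains the first, was in 4 of 34 (11.8%), against 1.93% of genes tested and 1.12% of the table. Both read the same on the 2 strands. The 3 holders of CACGTG with the smallest p are shown, with the match in capitals. Ctsd holds 2 matches (chr7:142387778-142388077, minus strand), Naglu 1 (chr11:101069844-101070143, plus strand) and Ctsf, a cathepsin that differed by 0.77 (SE 0.350), 1 (chr19:4854915-4855214, plus strand). A match describes the letters and is not evidence of binding in these cells.
Ctsd: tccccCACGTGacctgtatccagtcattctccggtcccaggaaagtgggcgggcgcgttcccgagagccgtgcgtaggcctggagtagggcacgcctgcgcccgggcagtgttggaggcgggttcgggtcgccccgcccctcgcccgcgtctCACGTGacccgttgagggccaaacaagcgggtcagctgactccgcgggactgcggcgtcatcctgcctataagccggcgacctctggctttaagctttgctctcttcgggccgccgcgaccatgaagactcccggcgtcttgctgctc
Naglu: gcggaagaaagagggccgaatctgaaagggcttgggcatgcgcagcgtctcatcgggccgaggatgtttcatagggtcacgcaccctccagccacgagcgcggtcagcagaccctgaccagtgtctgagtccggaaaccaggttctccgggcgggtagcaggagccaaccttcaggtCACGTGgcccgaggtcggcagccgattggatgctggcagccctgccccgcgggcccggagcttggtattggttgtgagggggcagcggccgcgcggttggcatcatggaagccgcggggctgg
Ctsf: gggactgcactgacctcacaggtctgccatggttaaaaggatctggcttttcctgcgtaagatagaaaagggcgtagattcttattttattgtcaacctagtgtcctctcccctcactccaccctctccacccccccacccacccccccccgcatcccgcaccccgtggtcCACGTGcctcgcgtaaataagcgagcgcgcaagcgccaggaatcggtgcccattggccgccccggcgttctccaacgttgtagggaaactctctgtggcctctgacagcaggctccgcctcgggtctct

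Genes of mitosis were lower as a group, unevenly between slides. Of 65 measured, 62 were below 0, with a median of -0.68, where 48.1% of all genes were below 0. None passed the correction, and 15 had an unadjusted p under 0.05, all lower, against 2.79% of all genes. The list averaged 0.56, 0.14, -0.04 and 0.01 in wild type and -0.04, -1.33, -0.02 and -0.53 in the knock-out. On all 4 slides 27 of 65 were lower, where 8.5% of all genes were. Knock-out array 2 was far lower than any other, wild type array 1 was the highest, and slide 3 showed no difference (slides -0.60, -1.46, 0.02 and -0.54). Without knock-out array 2 the median was -0.34, and on slides 3 and 4 alone it was -0.27 with 47 of 65 below 0. Cenpi, a kinetochore protein, read 0.96, 0.03, 0.52 and 0.06 in wild type and -0.35, -1.06, -0.20 and -0.82 in the knock-out, a difference of -0.999 (SE 0.304) with no overlap. Cenpa, which marks centromeres as a histone variant, was at -1.42 (SE 0.462) and Spc24, of the Ndc80 complex, at -0.80. Mad2l1, of the spindle checkpoint, read 0.29, -0.02, 0.33 and 0.29 against -0.20, -0.81, -0.23 and -0.57, a difference of -0.68 (SE 0.230). Foxm1, the transcription factor of late cell cycle genes, differed by -0.66 (SE 0.235).

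For DNA replication 48 of 49 genes were below 0. Their median was -0.40, and 4 of 49 were lower at an unadjusted p under 0.05, where 2.79% of all genes were. Their slides gave -0.28, -1.01, 0.10 and -0.38, and without knock-out array 2 the median was -0.17. On slides 3 and 4 alone it was -0.16, with 34 of 49 below 0. E2F factors and their partners were the exception in evenness: the list of 16 averaged 0.39, -0.01, 0.14 and -0.02 in wild type and -0.19, -0.34, -0.05 and -0.20 in the knock-out, lower on each slide. In it 11 of 16 were below 0, with a median of -0.27 (-0.13 on slides 3 and 4), and E2f7, a repressor of the family, differed by -0.97 (SE 0.339) with no overlap. Among G1 regulators Cks1b, a partner of cyclin-dependent kinases, read 0.57, 0.04, 0.46 and -0.04 in wild type and -0.28, -0.46, -0.18 and -0.68 in the knock-out, a difference of -0.66 (SE 0.239). Cdkn2a, whose locus makes the inhibitors p16 and p19Arf, read -0.22, 0.36, -0.32 and 0.01 against 0.46, 0.70, 0.95 and 0.87, a difference of 0.79 (SE 0.321). Neither gene overlapped between genotypes, and neither passed the correction.

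Promoters of mitotic genes often hold the cell cycle homology region, searched as TTTGAA on both strands. In the same window 37 of 55 mitotic genes found in the table held it (67.3%), against 15.4% of genes tested on the arrays and 6 of 34 lysosomal genes (17.6%), while CACGTG was in 4 of 55 mitotic genes (7.27%). The 2 holders with the smallest p were Cenpa (chr5:30666636-30666935, plus strand) and Cdc20, the activator of the anaphase-promoting complex (chr4:118437294-118437593, minus strand), which differed by -0.87 (SE 0.313).
Cenpa: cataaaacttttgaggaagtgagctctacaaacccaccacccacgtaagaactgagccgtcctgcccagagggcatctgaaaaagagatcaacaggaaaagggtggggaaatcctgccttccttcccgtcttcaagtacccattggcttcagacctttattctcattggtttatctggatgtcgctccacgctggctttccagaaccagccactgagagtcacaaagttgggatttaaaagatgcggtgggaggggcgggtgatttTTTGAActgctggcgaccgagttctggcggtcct
Cdc20: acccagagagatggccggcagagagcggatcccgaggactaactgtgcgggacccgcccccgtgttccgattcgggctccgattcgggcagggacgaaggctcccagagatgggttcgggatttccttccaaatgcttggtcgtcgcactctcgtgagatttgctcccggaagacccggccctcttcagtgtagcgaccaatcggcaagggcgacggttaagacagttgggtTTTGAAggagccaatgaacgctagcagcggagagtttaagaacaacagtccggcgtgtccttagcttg

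Among genes of the microtubule system itself the list medians were small, and single members lay further from 0. Of 17 tubulins 14 were below 0. Their median was -0.25, or -0.15 on slides 3 and 4, -0.39 without knock-out array 1 and -0.17 without knock-out array 4. Tuba1a, an alpha tubulin abundant in neurons, read 1.08, 0.66, 0.94 and 0.49 in wild type and 0.43, -0.86, 0.20 and -0.48 in the knock-out, a difference of -0.96 (SE 0.352) with no overlap. By channel, its sample signal differed by -0.40 and its reference signal by 0.57, so the larger share lay in the pooled reference. Tubb2b, a beta tubulin, differed by -0.998 (SE 0.472) and overlapped on 2 arrays. Microtubule-associated, tip and severing proteins were split, 20 above 0 and 17 below, with a median of 0.01 (0.11 on slides 3 and 4). Dclk1, a kinase that binds microtubules, differed by 0.84 (SE 0.334) with overlap. Map1b, which stabilises microtubules, was at 1.05, 0.26, 0.33 and 0.24 against -0.21, -0.67, 0.14 and -0.06, a difference of -0.67 (SE 0.228). Kinesins and dyneins had 25 of 37 below 0, with a median of -0.19. On slides 3 and 4 the median was -0.02 with 18 above 0 and 19 below, and it was -0.10 without knock-out array 1 and -0.08 without wild type array 4. Dync1i1, an intermediate chain of cytoplasmic dynein, lay farthest from 0 among them, at 0.47, 0.45, 0.52 and 0.63 in wild type and 0.18, -1.36, -1.10 and -0.72 in the knock-out. Its difference was -1.27 (SE 0.486) with no overlap. The kinases and phosphatases that act on stathmin had 9 of 17 below 0 (median -0.02, and -0.03 on slides 3 and 4). No gene of these lists passed the correction.

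Genes of antigen presentation by MHC class I were higher on every slide. All 18 measured were above 0, with a median of 0.78 (0.87 on slides 3 and 4). In 5 of 18 all 4 knock-out arrays lay above wild type, where 1.55% of all genes did. Only 1 of 18 was higher at an unadjusted p under 0.05, against 1.97% of all genes. The 16 members measured on all 8 arrays averaged -0.72, -0.47, -0.75 and -0.80 in wild type and -0.29, 0.24, -0.46 and 0.50 in the knock-out, so all 4 knock-out arrays lay above, arrays 2 and 4 most. Tap1, which pumps peptides into the endoplasmic reticulum, read -1.37, -0.73, -0.86 and -1.10 against -0.15, -0.37, -0.17 and 0.85, a difference of 1.06 (SE 0.470). Psmb9, an immunoproteasome subunit, read -1.15, -1.07, -1.54 and -1.26 against -0.87, 0.26, -0.51 and 0.85, a difference of 1.19 (SE 0.580).

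The wider interferon response was carried by fewer arrays. Of 40 genes 39 were above 0 with a median of 1.24, but the list averaged -1.01, -1.68, -0.19 and 1.41 on knock-out arrays 1 to 4, against -1.37, -1.62, -1.70 and -1.74 in wild type. Knock-out array 2 was at the wild type level and array 4 far above it. Without array 4 the median was 0.61, and on slides 3 and 4 alone 2.26. Bst2, the antiviral tether protein, read -1.44, -1.83, -1.99 and -1.48 in wild type and -0.05, -0.68, -1.25 and 1.47 in the knock-out, a difference of 1.56 (SE 0.665). Lgals3bp, a secreted galectin ligand, differed by 1.35 (SE 0.658), also without overlap. Gbp6, an interferon-induced GTPase, had one of the largest differences of all separated genes at 2.71 (SE 1.20). It read -2.56, -3.32, -3.41 and -3.66 in wild type and -2.39, -0.79, -0.21 and 1.28 in the knock-out, so array 1 was barely above wild type. Chemokines, cytokines and genes of NF-kB had 30 of 34 above 0 and a median of 0.89, with slide 1 in the other direction (-0.62, 1.44, 1.23 and 1.57). The median was 0.51 without wild type array 1, 0.53 without knock-out array 2, 1.43 without knock-out array 1 and 1.35 on slides 3 and 4. None of these genes passed the correction.

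Genes of cholesterol synthesis were lower, and also unevenly. All 26 were below 0. Their median was -0.44 (-0.77 on slides 3 and 4), with 2 of 26 lower at an unadjusted p under 0.05, where 2.79% of all genes were. The slides gave 0.18, -0.36, -0.68 and -1.03, so slide 1 ran the other way for the list mean, and the median was -0.28 without knock-out array 4 and -0.67 without array 1. Idi1, isopentenyl diphosphate isomerase, read 0.30, 0.08, 0.41 and -0.03 in wild type and -0.11, -0.06, -0.85 and -1.48 in the knock-out, a difference of -0.82 (SE 0.356) with a narrow gap. Nsdhl, a sterol dehydrogenase encoded on the X chromosome, differed by -0.75 (SE 0.256) and overlapped on 1 array.

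Of 21 contractile genes driven by serum response factor 20 were below 0. The median was -0.41 and the slides gave -0.36, -0.54, -0.22 and -0.96. Without knock-out array 3 the median was -0.63, and on slides 3 and 4 it was -0.36. Des, the muscle intermediate filament protein desmin, stood out. It read 0.00, 1.00, -0.20 and 0.00 in wild type and -1.39, -1.98, -2.76 and -2.25 in the knock-out, a difference of -2.29 (SE 0.716; limma, adjusted p = 0.907). All 10 smooth muscle and pericyte markers were below 0, with a median of -0.57 (-0.58 on slides 3 and 4). Their arrays averaged -0.10 to 0.53 in wild type and -0.94 to -0.10 in the knock-out, so that the highest knock-out array nearly met the lowest wild type array. Of 18 skeletal muscle markers 15 were below 0, with a median of -0.27 (-0.13 on slides 3 and 4), and they averaged 0.08 to 0.30 in wild type and -0.41 to -0.18 in the knock-out. Des is on the contractile, smooth muscle and skeletal muscle lists, so these lists are not separate observations.

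Markers of cell types other than fibroblasts differed by type. Epithelial and neural markers mostly lay below 0, while the medians of endothelium and adipocyte markers were near 0 and that of cartilage markers was above it. Of 17 keratinocyte and cornified envelope genes 14 were below 0. The median was -0.51 and the slides gave -0.64, -0.14, -0.84 and -0.83. The median was -0.08 without knock-out array 1, -0.30 without wild type array 3 and -0.73 on slides 3 and 4. Lce1h, a late cornified envelope protein, read 0.23, -0.10, 1.37 and 0.75 in wild type and -1.43, -0.84, -0.57 and -1.53 in the knock-out, a difference of -1.66 (SE 0.417). Its neighbours in the same cluster, Lce1i and Lce1e, differed by -1.65 (SE 0.420) and -0.86 (SE 0.204), and near-identical copies can share a probe's signal. Simple epithelium markers had 7 of 11 below 0, with a median of -0.36 (-0.87 on slides 3 and 4, -0.60 without wild type array 1 and -0.61 without knock-out array 2), and averaged -0.12 to 0.55 in wild type and -0.32 to -0.19 in the knock-out. Krt19 read 0.09, 0.16, 0.71 and 0.68 in wild type and -0.53, -0.78, -0.39 and -0.60 in the knock-out, a difference of -0.99 (SE 0.278). Krt18 differed by -2.06 (SE 0.720), with knock-out array 1 at -0.03 and the other knock-out arrays at -2.45 to -1.56. Neuron and glia markers had 13 of 16 below 0 (median -0.43, or -0.29 on slides 3 and 4), and averaged -0.13 to 0.03 in wild type and -0.57 to -0.35 in the knock-out. Elavl4, a neuronal RNA-binding protein, differed by -1.15 (SE 0.329) without overlap. Endothelium markers had 7 of 10 below 0 with a median near 0, at -0.04 (-0.20 on slides 3 and 4). Adipocyte markers were split, 4 above 0 and 4 below, with a median of 0.04 (-0.18 on slides 3 and 4). Cartilage markers had 7 of 10 above 0 with a median of 0.40, which was 0.17 on slides 3 and 4, 0.09 without knock-out array 2 and 0.23 without knock-out array 4. Fibroblast markers had 13 of 15 above 0, a median of 0.22 and slide differences of 0.28, 0.28, 0.39 and 0.58. Their median was 0.42 on slides 3 and 4 and 0.36 without knock-out array 1. Pdgfrb, the PDGF receptor of mesenchymal cells, read -0.17, -0.09, -0.46 and -0.26 in wild type and 0.10, 0.83, 0.31 and 0.00 in the knock-out, a difference of 0.55 (SE 0.201). The part that other cells in the cultures have in any of these differences was not tested.

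Hox genes, which keep the memory of body position in cultured fibroblasts, lay below 0 in 25 of 36 cases. The median was -0.48, but -0.13 without knock-out array 2, and -0.57 on slides 3 and 4. The slides gave 0.01, -0.46, -0.43 and -0.58, so slide 1 showed no difference. The clusters differed: 7 of 11 Hoxa, 9 of 9 Hoxb and 6 of 7 Hoxc genes were below 0, and 3 of 9 Hoxd genes. They were also uneven, with slides at 0.14, -1.175, -0.47 and -1.10 for Hoxb and 0.05, -1.15, -0.56 and -1.045 for Hoxc. Hoxa2 read 0.34, 0.08, 0.23 and 0.79 in wild type and -0.93, -0.65, -0.91 and -0.48 in the knock-out, a difference of -1.10 (SE 0.387), and Hoxa5 was -1.12 (SE 0.518). Of 29 matrix proteases and inhibitors 21 were above 0. The median was 0.25, or 0.12 without wild type array 1, 0.45 without knock-out array 1 and 0.19 on slides 3 and 4. Mmp2, gelatinase A, differed by 1.03 (SE 0.358), and Adamts9, a versican-cleaving protease, by 0.86 (SE 0.371) with no overlap. Lama4, a laminin chain, read -0.30, -0.46, -1.06 and -0.64 in wild type and 0.30, 0.18, 0.12 and 0.02 in the knock-out, a difference of 0.77 (SE 0.284). None passed the correction.

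**Figure D4:**
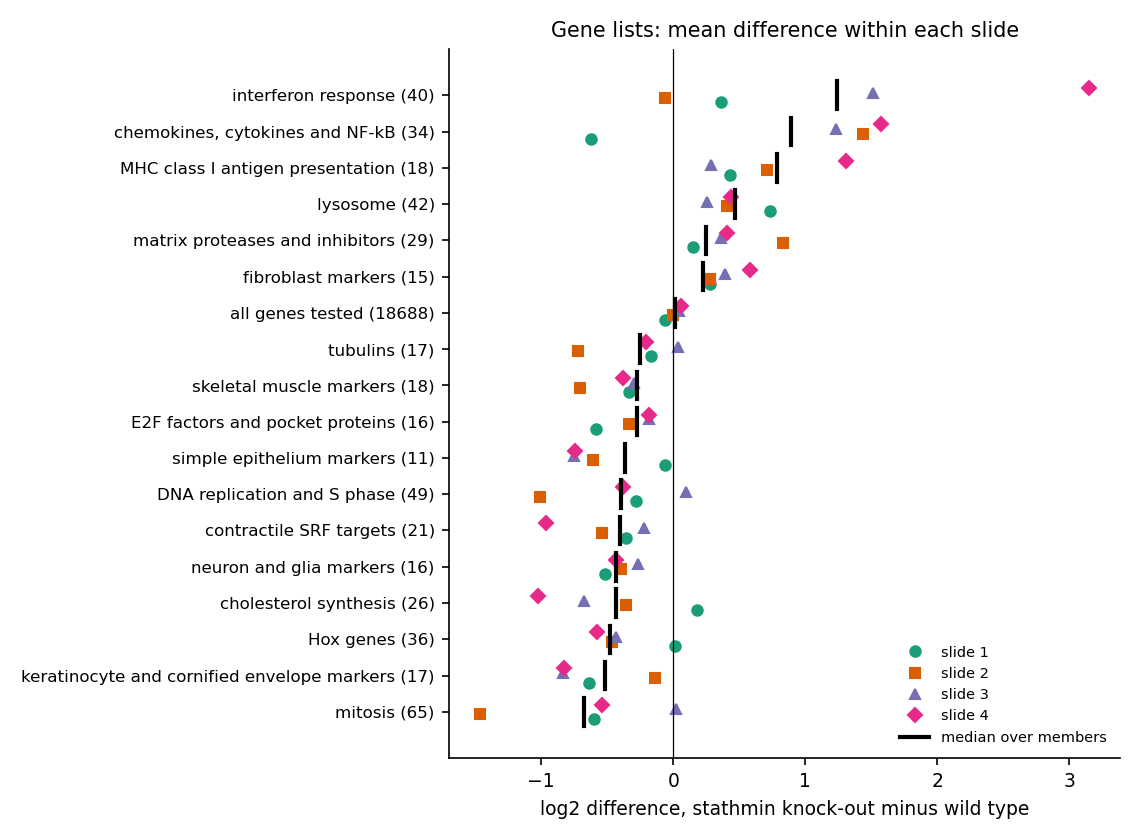
Mean log2 difference (stathmin knock-out minus wild type) within each of the 4 slides for 17 gene lists and for all genes tested, with the number of measured genes in brackets and a bar at the median over members. The lysosome, MHC class I and fibroblast lists lie above 0 and the E2F, neuron and glia, contractile and both epithelial lists lie below 0 on every slide, while the interferon, mitosis and cholesterol lists spread widely.

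A few genes outside these lists had large differences with no overlap. Mt2, a metallothionein that binds zinc and copper, read -1.35, -0.75, -2.09 and -1.72 in wild type and -0.35, 2.59, 0.11 and 1.98 in the knock-out, a difference of 2.56 (SE 1.17). Its sample channel was saturated on knock-out arrays 2 and 4. By channel, the Mt2 sample signal differed by 1.17 and the reference signal by -1.39, so the larger share lay in the reference. Mycn, a Myc-family transcription factor, read -0.08, 0.05, 1.28 and 1.29 in wild type and -0.995, -1.68, -0.66 and -2.50 in the knock-out, a difference of -2.09 (SE 0.606). Its second probe, too dim to be tested, differed by -0.03 with overlap. Spry4, a feedback inhibitor of receptor tyrosine kinases, differed by -1.85 (SE 0.644), and wild type arrays 2 and 4 (-0.77 and -0.42) lay much nearer to the knock-out range than arrays 1 and 3. The second Spry4 probe differed by -0.45 with overlap. Fabp5, a fatty acid binding protein of skin, differed by -1.52 (SE 0.377). Rapgef3, a cAMP-activated exchange factor for Rap, read -0.12, -0.41, -0.64 and -0.43 in wild type and 0.15, 0.54, 0.15 and 0.27 in the knock-out, a difference of 0.68 (SE 0.158). The adjusted p of each was 0.907 in limma.

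Loss of stathmin was also measured in cells without p27, as double knock-out minus p27 knock-out (3 and 4 arrays, none shared with the comparison above). The dimmer Stmn1 probe gave -3.71 there (SE 0.208; limma, adjusted p = 2.56e-06 over all probes) and the brighter -0.42, close to the values with p27 present. At their brighter probes Rpl11 differed by -1.55 and Pdik1l by 1.38, also in the same direction as above. Their second probes again went the other way, at 0.21 for Rpl11 and -0.30 for Pdik1l. Over genes, where the brighter probe stood for Stmn1, none passed the correction in limma (561 at an unadjusted p under 0.05). None passed for the difference between the 2 comparisons either (limma, smallest adjusted p = 0.243, 1374 at an unadjusted p under 0.05). The gene groups mostly had the other sign. Slide 2 carried p27 knock-out array 2 but no double knock-out array. That array could stand apart: for Mt2 it read 4.96, against -1.27 to -0.06 on the other p27 knock-out arrays. The Mt2 sample channel was saturated on that array, so this reading is not exact. No fit left out arrays of this comparison, so how far the signs rest on a single array was not tested. Of 42 lysosomal genes 36 were below 0 there (median -0.24), with Fuca1 at 0.29. Interferon genes had 0 of 40 above 0 (median -0.81), MHC class I genes had 16 of 18 below 0 (median -0.61), and cholesterol genes had 24 of 26 above 0 (median 0.34). Contractile genes had a median of 0.57 and mitotic genes of 0.11. Of the 145 genes with all 4 knock-out arrays above wild type and an unadjusted p under 0.05, 105 were below 0 without p27 (72.4%, against 52.4% of all genes). Of the 169 such genes below wild type, 137 were above 0 (81.1%, against 47.6% of all genes). The difference between the list medians was not tested.

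**Figure D5:**
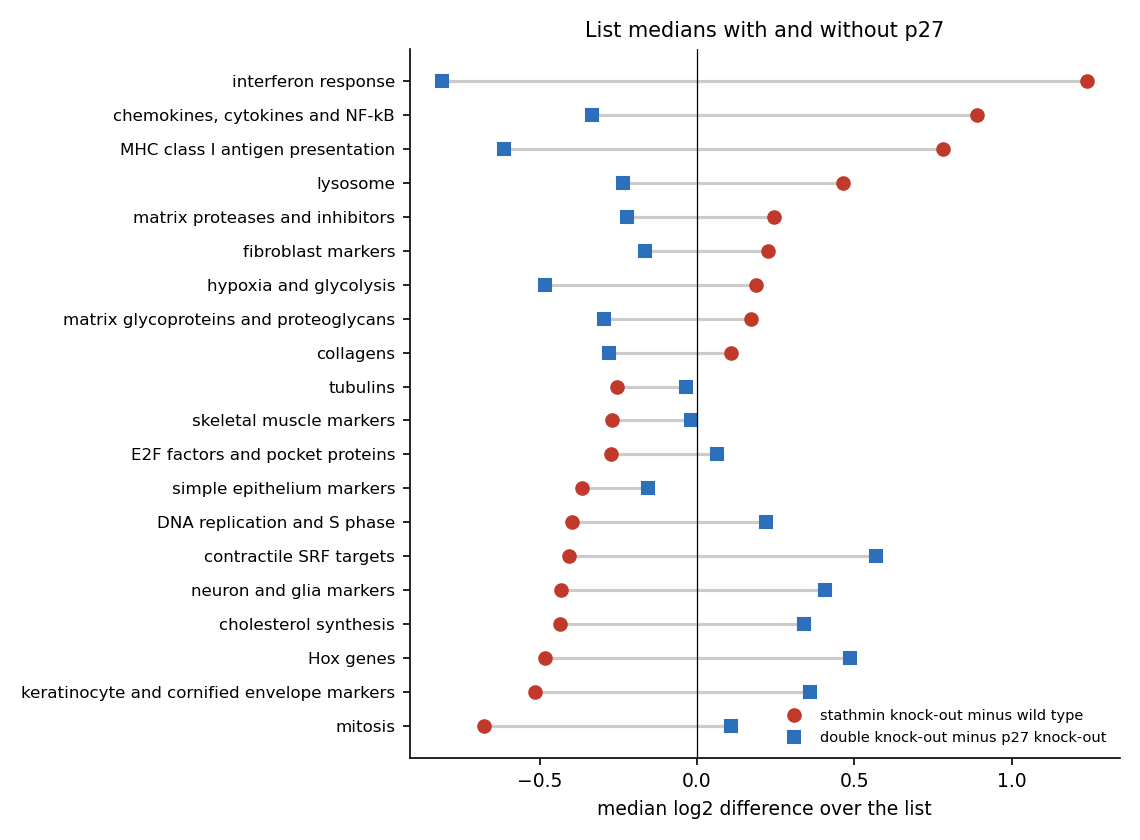
Median log2 difference over each of 20 gene lists for stathmin knock-out minus wild type (circles) and for double knock-out minus p27 knock-out (squares), joined by a line. The circles of the interferon, chemokine, MHC class I and lysosome lists are above 0 and their squares below, and the mitosis, contractile, cholesterol and Hox lists have the opposite order.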

How the data were processed

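The authors' scans were read by Feature Extraction 9.1.3.1 with background subtraction turned off, per the file headers. Deposited spot signals and backgrounds are intensity values. The scanner's own ratio is deposited as a log10 of red over green, and the authors' deposited value table holds log2 ratios whose normalization is not given in the sources used here. Per the labels, sample RNA was amplified and coupled to Cy5 and the pooled reference to Cy3.

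In limma 3.58.1 (R 4.3.3) normexp (offset 50) corrected the background, arrays were normalised by loess, outlier spots were left out and replicate spots averaged, giving 41174 probes. Testing required a sample signal well above background on 3 or more arrays of 1 genotype (27700 probes), and the brightest tested probe stood for a gene. RefSeq (GRCm38) named 18206 probes by accession, 4017 by symbol and 1906 by older symbol, and 3571 kept the file's name. All 15 arrays entered 1 fit of genotype means, which left 11 residual degrees of freedom, two-sided, with Benjamini-Hochberg adjustment at 0.05. The fit was tested on simulated data.

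The labels' replicate number is the slide number for both genotypes, so it pairs the arrays. The residual correlations of the 4 pairs were 0.42, -0.09, 0.21 and -0.06, and slide was a block in an alternative fit. P-values treat the arrays as biological replicates, as labelled. The members and gene lists were chosen with earlier results of these data known, and lists are described by counts and medians without a test. Named genes are Stmn1 and its family, called genes, the 25 separated genes with the smallest p, the 10 largest differences, and the 5 smallest p of each list. Ctsb, Ctsd, Ctsf, Ctsl, Lamp2, Naglu, Tfeb, Sqstm1, Ptprc, Cdc20, the genes given only by channel and the genes called in alternatives fall outside that rule. Alternatives covered background correction, normalization, filter, probe choice, blocks, weights, the variance model, channels and leaving out arrays. Promoter sequences are from RefSeq.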

Additional observations from a re-analysis of the deposited data

Results flagged for a closer look

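Among 219 groups of 4 arrays (named genes and list means, per genotype), 12 held an array far from the other 3, and chance alone gives about 1 in 20. In wild type, array 2 stood apart in Krt7 (0.40, others 1.06 to 1.10), Mad2l1 (-0.018, others 0.29 to 0.33) and Des (1.00, others -0.20 to 0.00), and array 1 in Map1b (1.05, others 0.24 to 0.33), Xist (0.20, others -2.32 to -2.0) and the chemokine and NF-kB list (-1.71, others -1.03 to -0.97). In the knock-out, array 2 stood apart in Man2b1 (0.48, others 0.15 to 0.19) and in the list means of collagens (0.54, others 0.00 to 0.05), p53 targets (-0.41, others 0.12 to 0.14) and Wnt signalling (0.48, others -0.35 to -0.23). Knock-out array 1 stood apart in Nsdhl (0.048, others -0.95 to -0.89) and in the chemokine and NF-kB list (-2.34, others 0.25 to 0.60).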

How the results depend on the processing

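The count of called genes moved from 1 to 2 with the replicate block (slide), to 0 with only the 8 arrays (1220 genes at an unadjusted p under 0.05 in limma), to 0 with the 8 arrays and the replicate block (1648), to 11 with array weights and to 0 in the sample channel alone (684). The 11 were Asap3, Dynap, ENSMUST00000033039, ENSMUST00000092045, Fuca1, Irx3, Krt7, LOC629581, Pdik1l, Rpl11 and Tshz1. Leaving out 1 array gave 0 to 2 calls (0 without wild type 1, 2 or 3 or knock-out 2 or 3, and Rpl11 with Fn3krp without knock-out 4). On slides 3 and 4 alone, chosen after seeing the data, 3 genes were called (Grhl1, Id2 and Wnt11), Rpl11 not among them. These slides hold the closely correlated wild type arrays 3 and 4. With those 2 arrays averaged, Rpl11 alone was called. In that fit 572 genes had an unadjusted p under 0.05 in limma, against 891 without averaging. With the mean over probes the 1 call was Stmn1 (-1.97) and not Rpl11. Over 25 alternatives Rpl11 was called in 15, with differences of -1.83 to -0.47 and adjusted p from 0.00079 to 0.978. The reference channel alone, with its sign turned, was run only for the count, Stmn1 and Rpl11, and gave 0.15 for the dimmer Stmn1 probe, the other direction. The interferon median was 2.26 on slides 3 and 4. The keratinocyte and cornified envelope median was -0.051 without the filter on dim probes and -0.71 to -0.084 when 1 array was left out. Of 67 named genes, 55 kept their direction and side of the threshold under all alternatives run. Genes named for lack of overlap cannot change direction when 1 array is left out, and only Rpl11 was called in the main fit. The choice of genes thus largely fixed this count, which is not a measure of how stable they are. Directions reversed for Stmn2 (-0.12 to 0.53 with 1 array left out), Stmn4 (0.11 on slides 3 and 4), Xist (-0.35 on slides 3 and 4), Tfeb (-0.020 with array weights, -0.34 in the sample channel, -0.017 on slides 3 and 4 and -0.015 to 0.086 with 1 array left out) and Sqstm1 (0.27 with the 8 arrays and the block, and -0.32 to 0.078 with 1 array left out). The replicate block changed no other call, and the causes were not tested.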

Other observations

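Genes of intermediate filaments, a list drawn up after the values of Krt7, Krt80 and Des were seen and so given without a test, had 21 of 30 measured members below 0 but a median of only -0.05. All 4 knock-out arrays lay below wild type in 8 of them, where 1.59% of all genes did: Krt7, Krt18, Krt19, Krt80, Des, the neurofilament genes Nefl (-0.47, SE 0.193) and Nefm (-0.82, SE 0.523), and Nes, which encodes nestin of progenitor cells (-1.21, SE 0.585). Vim, the filament protein of fibroblasts, differed by -0.41 (SE 0.206) with 3 of 4 knock-out arrays below wild type. The epidermal keratins Krt5, Krt10 and Krt14 were at -0.02, -0.05 and -0.05, and Krt1 was at 0.13 (SE 0.105) with all 4 knock-out arrays above wild type. Krt15, a keratin of basal epidermis, was at 0.71 (SE 0.593) with overlap. The 3 lamin genes of the nuclear envelope had a median of -0.67.

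Of 28 targets of p53, 20 were above 0. The median was 0.16, or 0.66 on slides 3 and 4 alone, 0.27 without wild type array 2 and 0.36 without knock-out array 2. Ddb2, a DNA damage recognition protein, differed by 0.63 (SE 0.201) with no overlap. Genes of hypoxia and glycolysis had 22 of 28 above 0 with a median of 0.19, which was 0.65 on slides 3 and 4, -0.03 without knock-out array 4, 0.34 without knock-out array 1 and 0.31 without knock-out array 2. Collagens had 17 of 26 above 0, with a median of 0.11. Without knock-out array 2, which stands apart in the mean of the collagens, it was 0.003, without knock-out array 1 it was 0.21, and on slides 3 and 4 it was -0.02 with 12 above 0 and 13 below. Wnt signalling genes were split, 18 above 0 and 17 below.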
